A study of Mus musculus with 6 samples.

Results

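The genes described here are those that make, degrade and sense extracellular adenosine: Nt5e, the gene of the surface 5'-nucleotidase CD73, the ectonucleoside triphosphate diphosphohydrolases Entpd1, Entpd2 and Entpd3, the adenosine-consuming enzymes Ada and Adk, and the adenosine receptors Adora1, Adora2a and Adora2b. They were chosen by symbol, and the group was picked because Nt5e was higher in ATM KO cells. Of the 9 genes, 4 (Nt5e, Entpd3, Ada and Adk) are among the 13405 genes listed in all 6 expression files. Entpd1, Entpd2, Adora1, Adora2a and Adora2b were not among the listed genes, by symbol or by Ensembl ID, and so could not be analysed here. The libraries come from 4T1 cells in culture (a carcinoma line from the mammary gland of a BALB/c mouse): 3 from cells with a vector control and 3 from cells with knockout of Atm, the gene of the DNA double-strand break kinase ATM. The labels do not say how the knockout was made, whether the ATM KO cells are 1 clone or a pool, or whether replicate libraries started from different cultures. P-values therefore measure the spread between these libraries alone, and that spread may be technical.

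ATP that leaves a cell is cut at the cell surface in 2 steps. NTPDases such as CD39 (Entpd1) and NTPDase3 (Entpd3) take ATP and ADP to AMP, and CD73, held on the outer membrane by a GPI anchor, takes AMP to adenosine. Adenosine then acts on G protein-coupled receptors that raise or lower cyclic AMP, is deaminated to inosine by adenosine deaminase (Ada), or enters the cell through nucleoside transporters and is returned to AMP by adenosine kinase (Adk). CD73 on tumour cells is known for restraining T cells and natural killer cells through adenosine.

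The listed genes hold from 22494919 to 32341508 reads in a library. Values are normalized read counts. A fold change is the mean log2(value + 1) of ATM KO libraries less that of vector control libraries, a scale that understates changes of genes with low values. Atm itself did not check the labels, since its mean was 1703 ± 243 in controls and 1923 ± 316 in knockout libraries (SD, n = 3 each) and a small deletion need not lower an mRNA. Vector control 1 and ATM KO 2 stood apart: on the first principal component, with 59.4% of the variance, they lay at -86.2 and -41.5, against 36.9 and 37.0 for vector controls 2 and 3 and 3.19 and 50.7 for ATM KO 1 and 3. Vector controls 2 and 3 were close to each other, with a correlation of log2 values across genes of 0.997. The carcinoma markers Epcam, Krt8, Krt18, Krt19, Krt7 and Cdh1 were high in all libraries, with Cdh1 between 16607 and 18627, while the basal keratin Krt5 was listed at 0 in each. Of the 8 genes of this list, 7 of them tested, only the basal keratin Krt14 separated the groups, beside 11.2% of all tested genes. Nothing is read from that count. Krt14 had 150, 684 and 654 counts in vector controls 1 to 3 against 2223, 1370 and 2311 in ATM KO 1 to 3 (log2 fold change 2.23, SE 0.62, limma adjusted p = 0.999). Of markers of other cells, 3 of 8 fibroblast, 2 of 11 immune and 1 of 6 endothelial genes were listed. Their summed values lay between 146 and 547, 529 and 1467, and 2.10 and 11.7 over the control libraries, and between 344 and 754, 702 and 1774, and 0 and 6.84 over the ATM KO libraries. Of the 2 immune genes, Csf1r was higher in all ATM KO libraries (438 to 1119) than in any control (229 to 387), while Cd68 overlapped with a lower ATM KO mean (794 ± 429 and 432 ± 324, log2 fold change -0.92). The part of such cells in the values below was not tested, and in bulk RNA a larger share of cells that express a gene cannot be told apart from more RNA per cell.

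Nt5e (ENSMUSG00000032420) lies on chromosome 9, 88327197 to 88372092, plus strand, in GENCODE M21 on GRCm38. Its RefSeq start is at 88327609. The 250 bases before that start are rich in G and C (72.0%, where the median of all promoter windows of this length was 52.4%), and a search of both strands for 5 motifs found only 2 of them. The stretches that hold the matches to the GC box (GGGCGG, the core bound by Sp1 family factors) are shown because Sp1 is among the factors described for the NT5E promoter. Both are from RefSeq's GRCm38.p6 table, plus strand, 5′ to 3′, with motif letters in capitals.
Nt5e chr9:88327380-88327401: tcaccgCCGCCCGCCCggggac
Nt5e chr9:88327574-88327599: cggGTCTGtccCCGCCCCGCCCtcct
The window holds 4 GC boxes, all read as CCGCCC on the printed strand and overlapping in pairs that begin 223 and 219 and 24 and 19 bases before the start. GTCTG, the reverse complement of the SMAD element CAGAC, occurs 2 times, 69 and 32 bases before the start, and the nearer copy is in the second stretch. No match was found to the hypoxia response core ACGTG, the cAMP response element TGACGTCA or the AP-1 site TGACTCA. The GC box stands in 33% of all 32536 windows, a SMAD element in 42.2%, a hypoxia core in 16.7%, a cAMP response element in 1.56% and an AP-1 site in 4.45%. GENCODE's longest Nt5e transcript begins upstream of this window, at 88327197, so by that annotation both stretches lie in exon 1. A match is a description of the letters only.

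All 3 ATM KO libraries held more Nt5e than any control. Vector controls 1 to 3 had 1399, 1805 and 1747 normalized counts, and ATM KO 1 to 3 had 3555, 3676 and 3824. The lowest ATM KO library was 1.97 times the highest control, and the 3 ATM KO libraries lay close together. The group means were 1651 ± 219.5 and 3685 ± 135 (SD, n = 3 each), a ratio of 2.23 and a log2 fold change of 1.17 (SE 0.16). These values chose the group of genes, so they are a description and no test is given. They rest on 1438, 1866 and 1663 recovered reads in the control libraries and on 4155, 3464 and 2988 in ATM KO 1 to 3, so that counting error is small: the 95% Poisson interval of the 2988 reads runs from 2882 to 3097. Such intervals cover counting error only.

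**Figure D1:**
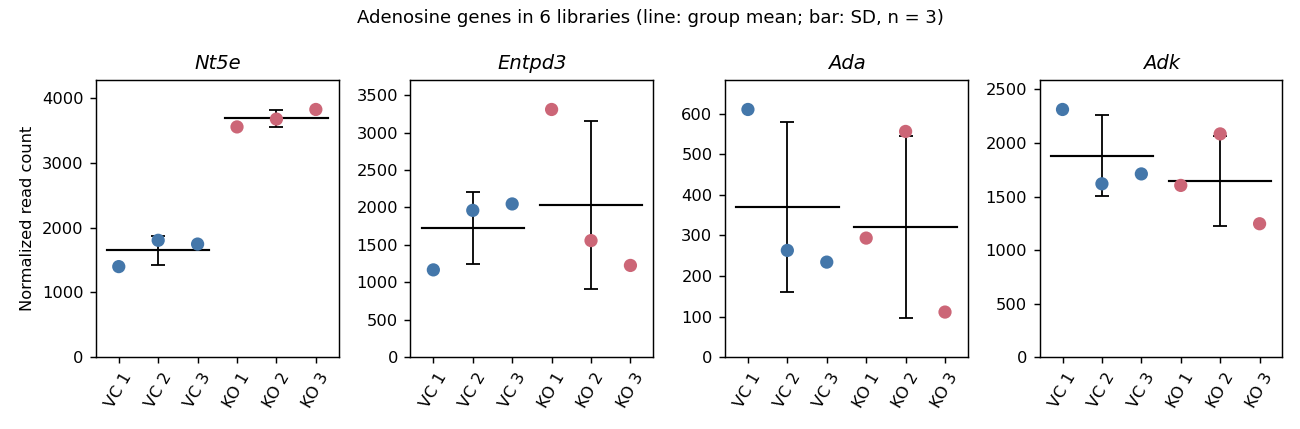
Normalized read counts of Nt5e, Entpd3, Ada and Adk (y axes, each from 0) in the 3 vector control (VC) and 3 ATM KO (KO) libraries. Points are libraries, lines are group means and bars are SDs; Nt5e lies between 3555 and 3824 in ATM KO cells, above all controls, while the groups overlap for the other genes.

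The spread of Nt5e within groups was small for these data. Its SD was 13.3% of the mean in the controls and 3.66% in ATM KO cells. On the log2 scale the within-group SD was 0.15, at the 11.9th percentile of the 12149 genes tested. Leaving out vector control 1, the lowest library, gave a log2 fold change of 1.05, and leaving out vector control 1 and ATM KO 2 together, a step added after seeing the data, also gave 1.05.

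Entpd3, the NTPDase of the group that could be analysed, overlapped between the groups. Entpd3 (ENSMUSG00000041608, chromosome 9, 120539818 to 120568327, plus strand) had 1167, 1961 and 2047 normalized counts in vector controls 1 to 3, and ATM KO 1 to 3 had 3308, 1558 and 1226. ATM KO 1 was the highest of the 6 libraries, and ATM KO 3 was next to the lowest, vector control 1. Group means were 1725 ± 485 and 2030 ± 1118 (log2 fold change 0.14, 95% interval -0.86 to 1.15, adjusted p = 0.999 by limma). The sign turned to -0.12 without vector control 1 and to -0.28 without ATM KO 1.

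Ada, which removes adenosine by deamination, was the most uneven of the 4 genes. Ada (ENSMUSG00000017697, chromosome 2, 163726584 to 163750239, minus strand) had 610, 263 and 234 normalized counts in vector controls 1 to 3, and ATM KO 1 to 3 had 293, 556 and 111. Vector control 1 and ATM KO 2 were high and ATM KO 3 was low, with a ratio of 5.48 between the highest and the lowest library. Group means were 369 ± 209 and 320 ± 224 (log2 fold change -0.35, 95% interval -1.93 to 1.24, adjusted p = 0.999 by limma), and the low value of ATM KO 3 rests on 87 reads (95% Poisson interval 69.7 to 107). Without vector control 1 the log2 fold change was 0.08, and without ATM KO 3 it was 0.27. The within-group SD was 0.98 on the log2 scale, at the 90.1th percentile of tested genes.

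Adk, which returns adenosine to AMP inside the cell, also overlapped. Adk (ENSMUSG00000039197, chromosome 14, 21052574 to 21448569, plus strand) had 2313, 1619 and 1712 normalized counts in vector controls 1 to 3, and ATM KO 1 to 3 had 1604, 2085 and 1247. As for Ada, vector control 1 and ATM KO 2 were the highest libraries and ATM KO 3 the lowest, over a narrower range. Group means were 1881 ± 377 and 1645 ± 421 (log2 fold change -0.21, 95% interval -0.81 to 0.39, adjusted p = 0.999 by limma).

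Limma called 0 of the 4 genes and 0 of all 12149 tested genes (0%), with 505 genes at an unadjusted p under 0.05. EdgeR also called 0 genes (0%), with 522 at an unadjusted p under 0.05. DESeq2 called 84 (0.691%), with 717 at an unadjusted p under 0.05. Nt5e was the only DESeq2 call among the 4, and since it was picked for its rise, nothing is read from that count; for Entpd3, Ada and Adk DESeq2 gave an adjusted p of 1.00. Groups did not overlap for 1 of the 4 genes, Nt5e, and for 11.2% of all tested genes.

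Levels of different genes can be set beside each other only per length. Per kb of the principal transcript (APPRIS tag in GENCODE M21), vector control cells held 1056 ± 211 for Adk, 499.5 ± 141 for Entpd3, 413 ± 54.9 for Nt5e and 219 ± 124 for Ada. In that order Entpd3 and Nt5e lay within their spread of each other. In ATM KO cells Nt5e, at 922 ± 33.8 per kb, stood beside Adk at 923 ± 236, with Entpd3 at 588 ± 324 and Ada at 190 ± 132. Per kb of all annotated exons together, Nt5e and Adk have longer models and the order changed: the controls then held 459 ± 129 for Entpd3, 221 ± 44.2 for Adk, 192 ± 25.5 for Nt5e and 184 ± 104 for Ada, and ATM KO cells 541 ± 298 for Entpd3, 428 ± 15.7 for Nt5e, 193 ± 49.4 for Adk and 160 ± 112 for Ada. Gene-level values do not show which transcripts were present. With either length the Nt5e level of ATM KO cells lay above that of Ada in every library.

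Ada and the hypoxia targets varied with the 2 libraries that stood apart, over a wider range than Nt5e. NT5E is known as a target of HIF-1, the hypoxia-induced transcription factor. The 14 hypoxia targets, such as Ldha, Ndrg1 and Car9, had median deviations from the gene mean on the log2 scale of -1.76, 0.99 and 0.94 for vector controls 1 to 3, and ATM KO 1 to 3 deviated by -0.16, -0.98 and 0.95. On the same scale Nt5e deviated by -0.81, -0.45 and -0.49 over vector controls 1 to 3 and by 0.53, 0.58 and 0.64 over ATM KO 1 to 3. Nt5e was thus lowest in vector control 1, where hypoxia targets were lowest, and lay within a narrow range over the ATM KO libraries, in which the hypoxia median ranged widely. Ada deviated by 1.04, -0.17 and -0.34 over the controls and by -0.02, 0.90 and -1.41 over ATM KO 1 to 3, high in the 2 libraries with low hypoxia targets. The part of these differences between libraries in the group values was not tested.

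**Figure D2:**
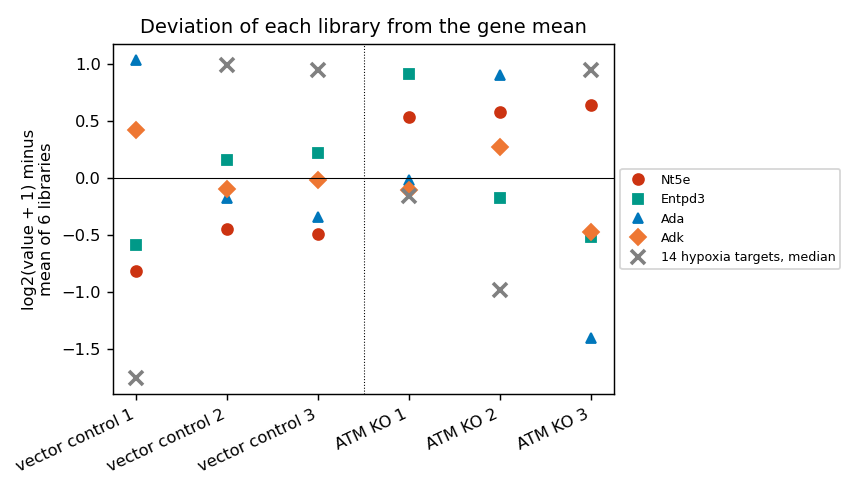
Deviation of each library (x axis) from the mean of the 6 libraries on the log2(value + 1) scale (y axis) for the 4 adenosine genes and the median of 14 hypoxia targets. Nt5e lies between -0.81 and -0.45 in the controls and between 0.53 and 0.64 in ATM KO cells; Ada is highest in vector control 1 and ATM KO 2, where the hypoxia median is lowest.

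Across the wider purine pathway, more genes had positive than negative log2 fold changes, and the median was close to 0. The 8 lists, from ATP release to cAMP-induced genes, hold 91 tested genes, of which 52 had a positive and 39 a negative log2 fold change (median 0.05), beside 5903 positive, 6246 negative and a median of -0.01 over all tested genes. Groups did not overlap for 11 of the 91 (12.1%), 6 higher and 5 lower in ATM KO cells, against 11.2% of all tested genes (5.7% higher, 5.48% lower). Nt5e, picked for its rise, is counted among the 52 positive and the 6 higher genes. Apart from the DESeq2 call of Nt5e, limma, edgeR and DESeq2 called 0 of these genes.

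Other ectonucleotidases and NTPDases were mixed, with 5 positive and 7 negative of 12 tested members and a median of -0.09. In 2 of them all ATM KO libraries were below all controls, as in 5.48% of all tested genes. Entpd5, an NTPDase of the endoplasmic reticulum, had 935, 1022 and 993 counts in vector controls 1 to 3 against 613, 835 and 776 in ATM KO 1 to 3 (log2 fold change -0.42, SE 0.19). Enpp4, a surface phosphodiesterase that cleaves the dinucleotide Ap3A, had 978, 1234 and 1198 against 898, 917 and 746 (log2 fold change -0.41, SE 0.18). Bst1, which encodes the NAD-consuming surface enzyme CD157 and had the highest mean of the list, overlapped, at 4650 ± 1927 and 5926 ± 2120.

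Genes that carry ATP out of the cell had 8 positive and 3 negative log2 fold changes among 11 tested members, with a median of 0.20. In 3 of them all ATM KO libraries exceeded all controls, and in 0 they were all below, where the shares over all tested genes were 5.7% and 5.48%. This list was also chosen with earlier results of these data known, so these counts are a description only. Panx1, the pannexin channel through which ATP leaves cells, was low, with 71.0, 29.99 and 25.2 counts in vector controls 1 to 3 against 83.0, 78.5 and 83.2 in ATM KO 1 to 3 (log2 fold change 1.09, SE 0.45). Its ATM KO libraries were even, and vector control 1 lay near them. Slco2a1, a prostaglandin transporter also described as the core of an ATP-permeable maxi-anion channel, had 4263, 4143 and 4079 counts in vector controls 1 to 3 against 5533, 5720 and 14304 in ATM KO 1 to 3, so that its ATM KO mean rests largely on ATM KO 3. Calhm2, described as an ATP-release channel, stood at 55.1 ± 11.5 and 71.7 ± 5.03. The gap junction gene Gja1, with the highest mean of the list, overlapped at 16965 ± 6547 and 17730 ± 9400. None of the 4 passed limma (adjusted p = 0.999 for each).

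Intracellular nucleotidases and adenosine metabolism had 12 positive and 13 negative of 25 tested members and a median of -0.07. Nt5c3, a cytosolic pyrimidine nucleotidase, was lower in every ATM KO library, with 1375, 1051 and 1071 counts in the control libraries against 653, 962 and 873 (log2 fold change -0.50, SE 0.22). Ahcyl1, a relative of the enzyme that splits S-adenosylhomocysteine to adenosine, was lower too (14144 ± 613 and 11707 ± 800). Ak3, a mitochondrial adenylate kinase, was higher in every ATM KO library (2737 ± 47.4 and 3174 ± 258). Mtap, which recycles methylthioadenosine and had the highest mean, overlapped (19120 ± 3675 and 19798 ± 3126). Nucleoside transporters, with 3 tested members, showed no separation, beside 11.2% of all tested genes, so nothing is read from that. Slc29a1, the equilibrative transporter ENT1, stood at 2461 ± 772 and 2611 ± 619.

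Of the nucleotide and remaining adenosine receptors 5 of 16 were tested, 4 with positive log2 fold changes and a median of 0.60. The groups separated in 0 of these 5, beside 11.2% of all tested genes, so nothing is read from that count. The most abundant, P2ry2, a receptor for ATP and UTP, stood at 629 ± 224 and 676 ± 80.4. Below the adenosine receptors, the cAMP pathway had 12 positive and 10 negative of 22 members and a median of 0.02. The stimulatory G protein gene Gnas, its most abundant member, stood at 30551 ± 9972 and 31119 ± 3146. Pde4a, a phosphodiesterase that breaks down cAMP, was higher in every ATM KO library, at 190, 581 and 605 against 628, 614 and 724, with vector control 1 far below the rest. Crtc1, a coactivator of CREB, was lower in every ATM KO library, at 956 ± 289 and 688 ± 69.6. Genes that cAMP induces had 8 positive and 2 negative of 10 members with a median of 0.17. The groups separated in 0 of the 10, beside 11.2% of all tested genes, so nothing is read from that count. Among them Sik1 stood at 3029 ± 636 and 5115 ± 2587, with 8041 in ATM KO 3, and Crem, a cAMP-induced repressor, at 163 ± 6.58 and 170.3 ± 6.90.

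**Figure D3:**
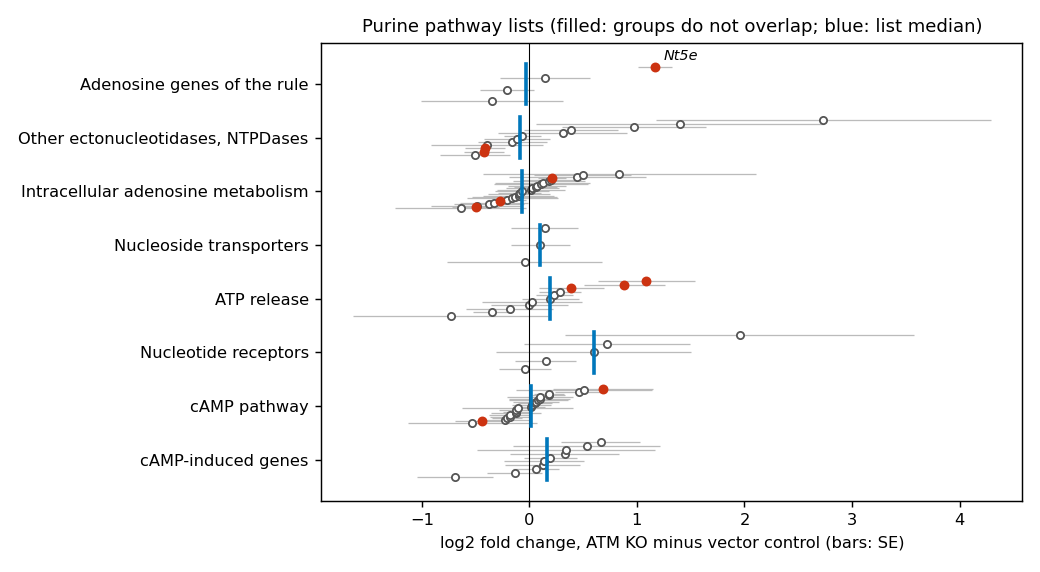
Log2 fold change (x axis, ATM KO minus vector control, bars SE) of the tested genes of 8 purine pathway lists (rows). Filled points are genes whose groups do not overlap and blue bars are list medians, which range between -0.09 and 0.60; Nt5e, chosen for its rise, is at 1.17, and Alpl (2.73), P2ry6 (1.96) and Cd38 (1.40), whose groups overlap, lie further out.

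Genes of the factors described for the NT5E promoter had 9 positive and 7 negative log2 fold changes among 16 tested members, with a median of 0.08. The groups separated in 0 of the 16, beside 11.2% of all tested genes. Hif1a had 10696, 5822 and 5577 counts in vector controls 1 to 3 against 9514, 9855 and 8276 in ATM KO 1 to 3. The beta-catenin gene Ctnnb1, the most abundant, stood at 37542 ± 6059 and 46263 ± 9051. Hypoxia targets had 5 positive and 9 negative members with a median of -0.11, and the groups separated in 0 of 14.

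TGF-beta signalling, another pathway described for NT5E, showed 11 positive and 0 negative log2 fold changes among 11 tested target and pathway genes, with a median of 0.48. In 3 of the 11 all ATM KO libraries exceeded all controls, where the share over all tested genes was 5.7%. The list was chosen with earlier results of these data known, so its counts are a description only. Pmepa1, a TGF-beta-induced inhibitor of the pathway, had 3998, 4153 and 4128 counts in vector controls 1 to 3 against 6460, 6438 and 6903 in ATM KO 1 to 3. It was the only member of the 11 called by DESeq2 (DESeq2 adjusted p = 3.31e-06, limma adjusted p = 0.943). Of all 12149 tested genes DESeq2 called 84 (0.691%). Ski, a SMAD corepressor, stood at 3205 ± 98.1 and 4602 ± 1255, with ATM KO 2 (3330) near the controls. The list's median deviation was -0.54, -0.11 and -0.11 for vector controls 1 to 3 against 0.31, -0.12 and 0.56 for ATM KO 1 to 3, so that ATM KO 2 lay with vector controls 2 and 3.

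CD73 is also 1 of the surface markers, with CD105 and CD90, by which mesenchymal stromal cells are known. Of that list 7 of 8 genes were tested and 6 had positive log2 fold changes, with a median of 0.38, Nt5e included. The gene of CD90, Thy1, was not among the listed genes, so it has no value here. Eng, which encodes the TGF-beta co-receptor CD105, had 2093, 2507 and 2501 counts in the control libraries against 2717, 3277 and 3260 (log2 fold change 0.38, SE 0.16, adjusted p = 0.999 by limma). Vcam1 was low and uneven, at 85.6, 71.6 and 77.7 against 335, 142 and 98.5. Cd44 (28363 ± 4683 and 29723 ± 14463) and Itgb1 (44663 ± 535 and 47909 ± 4777) overlapped.

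The genes next to Nt5e on chromosome 9 had smaller log2 fold changes. Snx14, 4.66 kb beyond its end, had 1168, 1548 and 1464 counts in vector controls 1 to 3 against 1543, 1457 and 1622 in ATM KO 1 to 3, with overlap (log2 fold change 0.15, SE 0.17). Syncrip and Snhg5, 74.9 and 149 kb beyond, differed by 0.12 (SE 0.35) and 0.11 (SE 0.51) on the log2 scale. On the other side the nearest tested gene, 4922501C03Rik, was over a megabase away, at 787 ± 15.9 and 1005 ± 55.6 (log2 fold change 0.35, SE 0.15), with all ATM KO libraries above all controls. Cyb5r4 and Me1 beyond it had log2 fold changes of 0.02 and -0.12. These neighbours were looked at after the values of Nt5e were known. Use of strand in the counting is not given in the sources used, but no other annotated gene overlaps the exons of Nt5e, Entpd3, Ada or Adk in GENCODE M21.

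**Figure D4:**
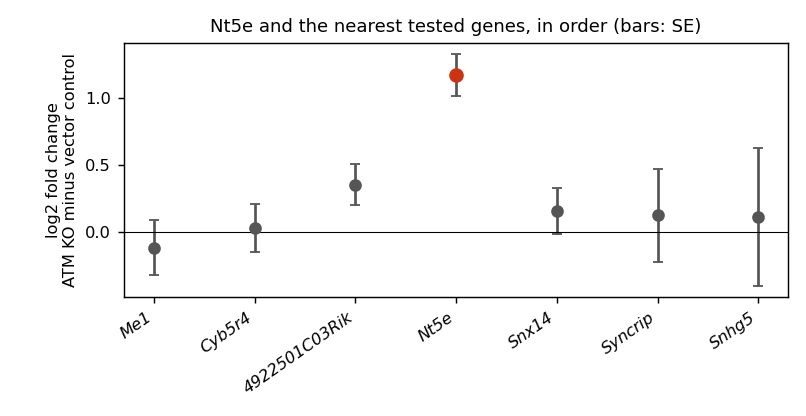
Log2 fold change (y axis, ATM KO minus vector control, bars SE) of Nt5e and the 3 nearest tested genes on either side, in chromosomal order (x axis, not to scale). Nt5e stands at 1.17 and the 6 neighbours between -0.12 and 0.35.

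The 5 ranked genes whose pattern over the 6 libraries was most like that of Nt5e were Map3k14, Ulbp1, Pmepa1, Grap and Araf. Ranked were 10041 other tested genes with a mean of at least 50, without predicted, clone-named and pseudogene symbols. Pearson correlations of log2 values with Nt5e were 0.993, 0.989, 0.988, 0.986 and 0.982 over 6 libraries. The libraries are the same for all genes and fall into 2 levels, so these values describe the same contrast again. Ulbp1, a ligand of the natural killer receptor NKG2D, had 244, 280 and 297 counts in the control libraries against 543, 636 and 567, a ratio of 2.13. Grap, an adaptor related to GRB2, stood at 41.8 ± 14.2 and 188 ± 17.8. Smaller ratios were those of Map3k14, the kinase of non-canonical NF-kappa-B signalling (686 ± 38.1 and 926.5 ± 23.5, ratio 1.35), and of the RAF kinase gene Araf (2169 ± 13.4 and 2776 ± 55.6, ratio 1.28).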

How the data were processed

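RNA was sequenced from 3 vector control and 3 ATM KO libraries of 4T1 cells, grouped by title. The deposited signal is a read count scaled by the authors with a single factor for each library, as the values themselves show: 100% of them are whole multiples of 1 step within 0.01 reads. Tools listed in the submitters' processing notes are STAR, HTSeq, DESeq2, SAMtools, Trim Galore and cutadapt, with builds GRCm38 and mm9 and no versions or roles. How the 13405 listed genes were selected is not given in the sources used. Of their IDs 98.8% are in GENCODE M21, which gave coordinates and lengths.

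Genes with a mean of at least 10 over the 6 libraries (12149) were compared with limma 3.58.1 in R 4.3.3 on log2(value + 1), with a mean-variance trend, 2-sided, and Benjamini-Hochberg adjustment over all tested genes at 0.05. EdgeR 4.0.16 and DESeq2 1.42.0 were run on the recovered reads. The scripts were tested on simulated counts. Named are the adenosine genes; from each other list up to 4 tested members with no overlap between groups, by fold change, and the member with the highest mean; and the 5 genes most correlated with Nt5e. Hif1a, Crem, Cd44, the neighbours of Nt5e and the genes under other observations were named after their values were seen. Genes and lists were chosen with earlier results of these data known.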

Additional observations from a re-analysis of the deposited data

How the results depend on the processing

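Limma called 0 genes in every setting tried: TMM scaling, pseudocounts of 0.5 and 5, no filter on low values, leaving out each library in turn (from 0 to 0 genes), the replicate block, and leaving out vector control 1 and ATM KO 2 together. EdgeR also called 0, and DESeq2 called 84. The log2 fold change of Nt5e ranged between 1.05 and 1.24 over the 14 alternatives. Its groups do not overlap and it was picked for its rise. Leaving out libraries could thus not turn its sign, and the range is a description only. That of Adk ranged between -0.39 and -0.02, with its direction kept. With single libraries left out, Entpd3 ranged from -0.28 (without ATM KO 1) to 0.44 (without ATM KO 3), with -0.12 without vector control 1, and Ada from -0.89 (without ATM KO 2) to 0.27 (without ATM KO 3), with 0.08 without vector control 1. The count of purine pathway genes whose groups do not overlap, Nt5e included, was 11 with TMM scaling as well and 40 without vector control 1. In that setting 44% of the pathway genes and 41.4% of all tested genes separated. Fewer libraries part more easily, and vector control 1 also stood apart from the other controls. The part of each in the higher count was not tested. With the replicate block 0 genes were called and Nt5e stood at 1.17. Deviations of same-numbered libraries from their group means correlated at -0.02, -0.58 and 0.53. Since deviations sum to 0 within each group, mixed signs over the pairs of libraries arise in any case. These values therefore cannot decide whether the numbers pair the samples. The order of the 4 genes per kb depends on the length used. With 3 libraries a group the exact permutation test cannot go below p = 0.10.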

Other observations

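Alpl, which encodes tissue-nonspecific alkaline phosphatase, a second surface enzyme that can take AMP to adenosine, was low and very uneven, with 4.87, 38.7 and 37.8 normalized counts in vector controls 1 to 3 against 120, 18.0 and 1152 in ATM KO 1 to 3. ATM KO 2 lay below 2 of the controls, and the ATM KO mean rests on ATM KO 3. P2ry6, the UDP receptor, had a like order, with 3.89, 37.7 and 37.8 against 129, 6.37 and 447.9. Cd38, an NAD-consuming surface enzyme that feeds an alternative route to AMP and adenosine, had 5.84, 193 and 189 against 140.3, 106 and 305, so that vector control 1 was far below all other libraries. In all 3 genes the groups overlapped, and none passed limma, edgeR or DESeq2. Alpl and P2ry6 were highest in ATM KO 3 and lowest in vector control 1, as Nt5e was, but over a far wider range.

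Over chromosome 9, which holds Nt5e and Entpd3, 675 genes were tested, with a median log2 fold change of 0.01 beside -0.01 over all tested genes. In 50 of them (7.41%) all ATM KO libraries exceeded all controls, against 5.7% of all tested genes.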
